A study of Mus musculus with 3 samples.

Results

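The smooth muscle contractile genes described here are 10 genes chosen by symbol: Acta2, Tagln, Myl9, Tpm1, Tpm2, Cnn1, Myh11, Actg2, Des and Mylk. All 10 were among the 28693 genes listed in the files, and all were detected. They were followed across 3 single-cell RNA libraries of dissociated abdominal skin dermis from C57BL/6 mice. All mice carried Col1a2creERT2, a tamoxifen-activated recombinase driven by a collagen promoter, and the reporter R26H2B EGFP, and all had been given tamoxifen. All 3 groups were of 8 to 12 weeks. The NP library came from the non-pregnant control, which had tamoxifen for 3 days and was sampled 48 days later. The dpc16 library was taken at day 16 of gestation and the dpp42 library at day 42 after birth, both after tamoxifen during pregnancy. How many mice were pooled in a library is not given in the sources used here. Each stage was 1 library, so no difference between stages has a replicate check, no test was made, and stage, library and mouse cannot be told apart.

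Smooth muscle shortens when myosin pulls on actin filaments. In skin it forms the arrector pili muscles of the hair follicles and the walls of arterioles and venules, and pericytes around the finest vessels carry part of the same gene set. Acta2 and Actg2 encode the alpha and gamma smooth muscle actins, Myh11 the smooth muscle myosin heavy chain and Myl9 a regulatory light chain of myosin. Mylk encodes the kinase that phosphorylates that light chain and so starts contraction. Tpm1 and Tpm2 encode tropomyosins that lie along the actin filament, Cnn1 (calponin 1) and Tagln (transgelin, SM22 alpha) actin-binding proteins, and Des (desmin) the intermediate filament of muscle. Many of these genes are known targets of serum response factor (SRF), which binds a DNA element called the CArG box.

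Each member is a protein-coding gene in GENCODE release M21 on GRCm38, the build named by the submitters. Acta2 (ENSMUSG00000035783) lies at chr19:34241090-34255590 on the minus strand, Tagln (ENSMUSG00000032085) at chr9:45929619-45936058 on the minus strand and Myl9 (ENSMUSG00000067818) at chr2:156775420-156781658 on the plus strand. Tpm1 (ENSMUSG00000032366) lies at chr9:67022590-67049406 and Tpm2 (ENSMUSG00000028464) at chr4:43514711-43523765, both on the minus strand. Cnn1 (ENSMUSG00000001349) lies at chr9:22099216-22109630 on the plus strand and Myh11 (ENSMUSG00000018830) at chr16:14194535-14291372 on the minus strand. Actg2 (ENSMUSG00000059430) lies at chr6:83512905-83536265 on the minus strand, Des (ENSMUSG00000026208) at chr1:75360329-75368579 and Mylk (ENSMUSG00000022836) at chr16:34745210-35002420, both on the plus strand. Tpm1 has 21 annotated transcripts and Mylk 8. A 3′ UMI count (unique molecular identifier, 1 per captured RNA molecule) does not tell these transcripts apart, so muscle and non-muscle forms of Tpm1, Tpm2 and Mylk are counted together.

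Since SRF is known to act on many of these genes, their promoters were read for the CArG box. The RefSeq promoter table (GRCm38.p6) held 7 of the 10 members, and Tagln, Myh11 and Actg2 are named only. In the 250 bases before the start, a CArG box with at most 1 letter off the pattern was found in 3 of the 7, with a pair of matches in each. Of all 32851 promoters in the table, 18.6% held at least 1 such match and 2.96% at least 2. Nearer sets were closer to the members in having at least 1 match. It was held by 6 of 14 promoters of non-muscle counterparts (42.9%, the same share as in the members). Of further smooth muscle genes 8 of 27 (29.6%) held it, so at least 1 match was not particular to the members. At least 2 matches were found in 1 of the 14 (7.14%) and 2 of the 27 (7.41%), against 3 of the 7 members. The pattern is its own reverse complement, so both strands were searched at once. An exact box stood in 1 of the 7, Myl9, in 3 of the 14 of non-muscle counterparts and in 1.47% of all promoters. The 3 stretches are shown 5′ to 3′ on the gene's strand, from chr19:34255383-34255472 for Acta2, chr2:156775288-156775389 for Myl9 and chr9:67049269-67049449 for Tpm1, with the matches in capitals.
Acta2: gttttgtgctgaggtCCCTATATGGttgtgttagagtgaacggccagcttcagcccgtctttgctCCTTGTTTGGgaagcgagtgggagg
Myl9: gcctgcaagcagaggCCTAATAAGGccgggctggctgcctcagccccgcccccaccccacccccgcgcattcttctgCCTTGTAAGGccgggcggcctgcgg
Tpm1: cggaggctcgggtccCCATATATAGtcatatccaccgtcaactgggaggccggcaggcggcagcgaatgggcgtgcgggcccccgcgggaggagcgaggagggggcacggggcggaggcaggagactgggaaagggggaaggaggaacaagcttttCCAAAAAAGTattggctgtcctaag
The Acta2 matches began 84 and 34 bases before the RefSeq start, those of Myl9 161 and 99 bases before it, and those of Tpm1 221 and 80 bases before it. These are matches of letters, and the data do not show binding.

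The libraries held 1330 NP, 4122 dpc16 and 1196 dpp42 barcodes. With at least 200 genes and at most 10% mitochondrial UMIs, 1289, 3652 and 1081 cells were kept, with 5905715, 19711100 and 5432269 UMIs and a median of 3119, 4300.5 and 3252 UMIs per cell. Between 2 and 7 barcode sequences were shared by each pair of libraries. Levels are given as a gene's UMIs per 1000000 UMIs of the cells summed (CPM), with 95% counting intervals that cover counting error only and not differences between mice. Genes are not ranked against each other on this scale. Cells were grouped by clustering that did not use the 10 genes, and the clusters were named from marker genes that are not members.

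The contractile genes marked a very small number of cells. One cluster of 16 cells was called smooth muscle-like from genes such as Synpo2, Lmod1 and Ppp1r14a (3 NP, 8 dpc16 and 5 dpp42 cells). Another of 27 cells was called mural-like, led by the pericyte gene Rgs5 (3 NP, 21 dpc16 and 3 dpp42 cells), and it also scored on the smooth muscle list. Together these 43 cells were 0.714% of the 6022 kept cells, and they held 80.4% (95% exact binomial interval 78.9 to 81.9) of the Acta2 UMIs in kept cells. The share was 87.8% for Myh11, 79.6% for Myl9, 79.0% for Actg2, 73.6% for Cnn1 and 71.0% for Tagln. It was lower for Mylk, at 63.4%, Des, at 55.5%, and Tpm2, at 47.6%. Only 12.5% of the Tpm1 UMIs were in these cells. The 43 cells made up 0.465% of kept NP cells (0.171 to 1.01), 0.794% of dpc16 cells (0.532 to 1.14) and 0.740% of dpp42 cells (0.320 to 1.45), so the shares differed by less than their counting intervals.

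The cell filter left out more of each member's UMIs than the kept smooth muscle-like cells held. The 626 barcodes left out held 7.33% of all UMIs, but 51.7% of the Acta2 UMIs, 60.2% of Myh11, 58.8% of Cnn1, 52.2% of Mylk, 52.1% of Actg2 and 50.8% of Des. For Tpm1 the share was 15.8%. Barcodes with at least 3 of the genes Acta2, Tagln, Cnn1, Myh11, Actg2 and Des numbered 66 among the 6022 kept cells, or 1.10%, and 49 among the 626 left out, or 7.83% (95% exact binomial interval 5.85 to 10.2). All 6 genes were detected in 17 kept and 40 left-out barcodes. None of the 49 had under 200 genes. Their median was 3866 UMIs and 1564 genes, with 15.4% mitochondrial UMIs (10.0 to 35.4).

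In the plot of UMIs by place, Tpm1 was the member found mainly in other cells, and 9 of the 10 genes had at least 35.6% of their UMIs in left-out barcodes.

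**Figure D1:**
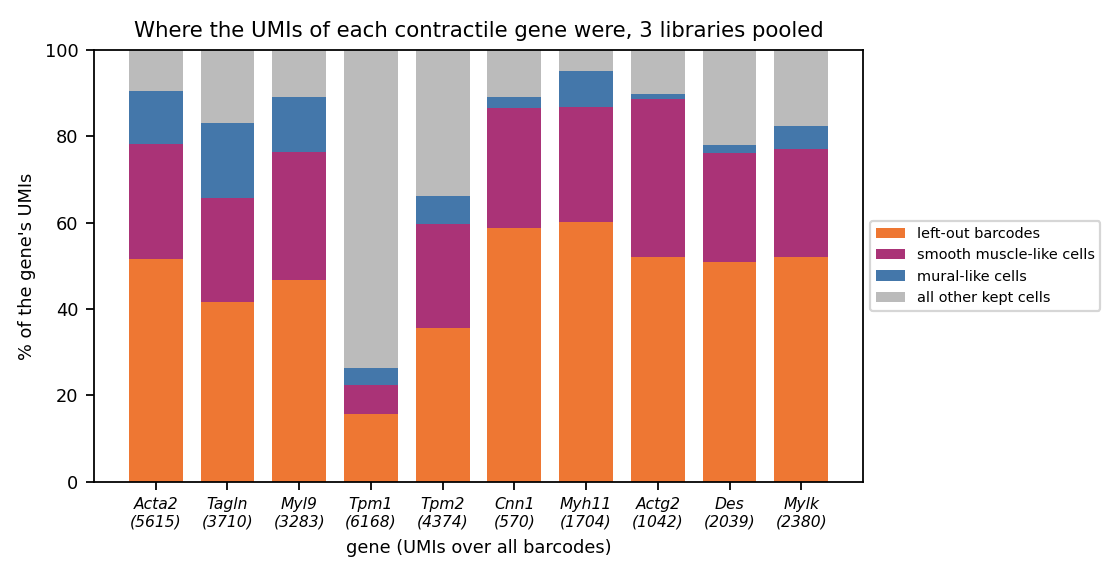
Share of each contractile gene's UMIs (vertical axis, % of the gene's UMIs over all barcodes of the 3 libraries) in barcodes left out by the cell filter, smooth muscle-like cells, mural-like cells and all other kept cells, with the gene's total UMIs in brackets. The left-out share runs from 15.8% for Tpm1 to 60.2% for Myh11, and Tpm1 is the gene with most of its UMIs, 73.7%, in other kept cells.

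Summed over the 49 left-out barcodes, the members given here were nearer to the kept smooth muscle-like cells than to the mural-like cells. The barcodes were not alike: the 10 members made up 0.301 to 10.0% of a barcode's UMIs. Acta2 stood at 14040 CPM in them, 17279 in smooth muscle-like cells, 6547 in mural-like cells and 17.8 in the other 577 left-out barcodes. Des stood at 4987 CPM against 5960 in smooth muscle-like and 400 in mural-like cells. Cnn1 stood at 1608 against 1829 and 143, and Actg2 at 2594 against 4409 and 124. Synpo2, an actin-bundling protein of muscle, was at 1849, 2153 and 238 CPM, and the integrin gene Itga8 at 863, 845 and 162. Both are leading genes of the smooth muscle-like cluster and were picked after their values were seen, and Synpo2 also named it. Other smooth muscle genes are not given for these barcodes. Rgs5 was detected in 7 of the 49, at 176.5 CPM, against 0 in the smooth muscle-like and 3768 in the mural-like cells. Ckm, the muscle creatine kinase, was at 348 CPM in the 49 barcodes, 289 in smooth muscle-like cells, 0 in mural-like cells and 0.389 in the other kept cells. Of 10 skeletal muscle markers, 7 were at 0 in the 49 barcodes, and Tnnt3 was at 34.3 and Myl1 at 39.2 CPM. In the smooth muscle-like cells 6 were at 0, Tnnt3 was at 46.3 CPM and Acta1 had 6 UMIs in 1 cell, and in the mural-like cells 8 were at 0 and Myl1 was at 85.6 CPM. The barcodes were chosen with 6 of the members, so their member levels are a description.

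By library, 4 of 41 left-out NP barcodes, 39 of 470 dpc16 and 6 of 115 dpp42 had at least 3 of the 6 genes, or 9.76, 8.30 and 5.22%. The 10 members together made up 6392, 5494 and 2986 CPM of the left-out NP, dpc16 and dpp42 barcodes, against 338, 678 and 519 in the kept cells. High mitochondrial content was thus found with these genes in each library. Among kept cells the median mitochondrial share was 6.63% in smooth muscle-like and 5.78% in mural-like cells, against 3.74% in keratinocyte-like, 3.34% in fibroblast-like and 6.62% in sebocyte-like cells. Whether the left-out barcodes were intact or damaged cells was not tested.

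**Figure D2:**
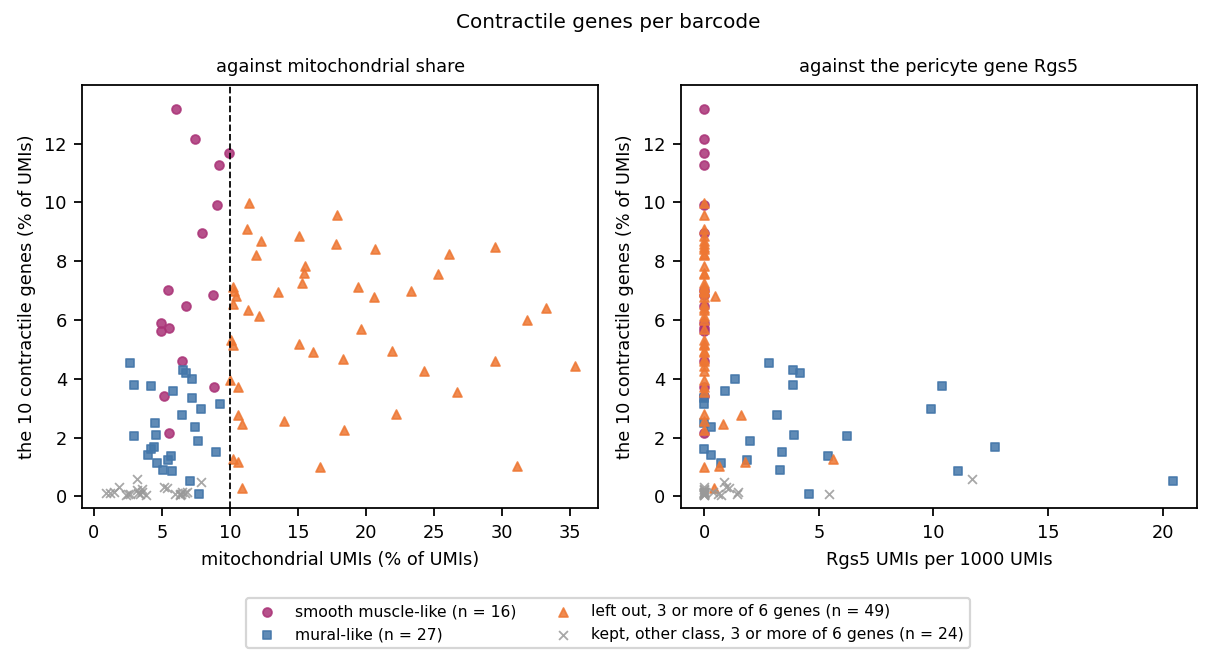
The 10 contractile genes as a share of UMIs (vertical axis, %) in single barcodes, against mitochondrial UMIs (left, %, with the 10% limit dashed) and against Rgs5 UMIs per 1000 UMIs (right). The 49 left-out barcodes have a median of 6.15%, the 16 smooth muscle-like cells 6.67% and the 27 mural-like cells 2.09%, and the 24 kept cells of other classes with at least 3 of 6 genes stay at or below 0.594%.

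Within the muscle cells the 2 clusters carried the genes in different proportions. All 16 smooth muscle-like cells had a UMI of each of the 10 members, and none had Rgs5. The 10 members took a median of 6.67% of a smooth muscle-like cell's UMIs (2.17 to 13.2) and 2.09% of a mural-like cell's (0.0831 to 4.55). Actin genes showed the contrast: Acta2 was at 17279 CPM in smooth muscle-like and 6547 in mural-like cells, 2.64 times higher (95% counting interval 2.41 to 2.89), while Actg2 was at 4409 against 124, 35.6 times higher (20.6 to 67.6). Actg2 was detected in 6 of 27 mural-like cells, all of them in dpc16. Among filament and regulatory genes, Des was 14.9 times higher (10.9 to 20.9), Cnn1 12.8 times (7.54 to 23.4) and Mylk 5.70 times (4.70 to 6.96). Tpm2 was 4.52 times higher and Myh11 3.85 times. Myl9 was 2.82 times higher, Tpm1 2.06 times and Tagln 1.68 times (1.51 to 1.86). The clustering used other genes of the same cells, so these ratios are a description of the clusters.

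Each of the 10 members was higher in the smooth muscle-like than in the mural-like cells of each library, although NP and dpp42 rest on 3 mural-like cells each. The 3 NP smooth muscle-like cells had 53, 41 and 83 Acta2 UMIs, and the 3 NP mural-like cells 0, 14 and 5. The 5 dpp42 smooth muscle-like cells had 62, 7, 34, 144 and 76 Acta2 UMIs, and the 3 mural-like cells 1, 17 and 10. So Acta2 UMIs did not overlap between the clusters in NP, while in dpp42 1 smooth muscle-like cell fell within the mural-like range. Depth differed between these cells. As CPM, the lowest NP smooth muscle-like cell was at 8494 and the highest mural-like cell at 5629. In dpp42 the highest mural-like cell was at 7424 CPM, from 17 of 2290 UMIs. The smooth muscle-like cell with 34 of 4596 UMIs was then also within the mural-like range. For Des, the NP smooth muscle-like cells had 4, 12 and 13 UMIs and the mural-like cells none. In dpp42 the smooth muscle-like cells had 31, 2, 7, 36 and 20 Des UMIs, against 0, 1 and 2. For Actg2 the NP smooth muscle-like cells had 7, 6 and 21 UMIs and the dpp42 cells 12, 6, 7, 26 and 11, and no NP or dpp42 mural-like cell had any. Over the 8 dpc16 smooth muscle-like cells Acta2 was at 22117 CPM (20762 to 23536), against 12502 (10728 to 14485) in the 3 NP and 11810 (10557 to 13171) in the 5 dpp42 cells. These sums rest on 3 to 8 cells of 1 library each, and the spread between cells, 3101 to 35097 CPM over the 16, was wider than that difference.

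The mural-like cells varied among themselves. They carried between 4 and 10 of the members, with a median of 8. The NP mural-like cell with the most Rgs5, 22 UMIs, had no Acta2, Tagln, Myh11 or Des. The dpp42 cell with 60 Rgs5 UMIs had 1 Acta2 UMI, and the other dpp42 mural-like cells, with 17 and 10, had no Rgs5. The 4 mural-like cells without Rgs5 had 6251 Acta2 and 341 Notch3 CPM, against 6547 and 523 over all 27.

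A gate on mural genes alone found other cells. With at least 2 Rgs5 UMIs and at least 2 other mural markers, 60 cells passed, and 29 of them had no Acta2. Only 20 were in the mural-like cluster and 36 were in the blood endothelial-like clusters. The gate itself fixes that its cells hold more of the mural markers. The 36 had 1860 Rgs5, 154 Notch3 and 148 Abcc9 CPM, against 65.3, 15.8 and 10.1 in the other 222 blood endothelial-like cells. The 20 gated mural-like cells had 4626, 551 and 25.6 CPM. Rgs5 and Notch3 were thus higher in the 20 than in the 36, while Abcc9, with 2 UMIs in the 20, was lower. The 36 also had 816 CPM of the endothelial gene Pecam1 and 576 of Cdh5, against 1130 and 669 in the other blood endothelial-like cells. In the 20 gated mural-like cells Pecam1 was at 51.3 and Cdh5 at 12.8 CPM. Acta2 was at 79.9 CPM in the 36, 6997 in the 20 gated mural-like cells and 15.8 in the other blood endothelial-like cells. Des was at 91.3, 346 and 16.9 CPM in these groups, and Mylk at 194, 1102 and 76.6. The 10 members together were at 8072 CPM over the 60 gated cells, 24893 over the mural-like cluster and 20825 over the 24 gated cells outside the blood endothelial-like clusters, so their level in mural cells depended on how these were chosen. No cells were removed as doublets, and whether these barcodes held 2 cells was not tested.

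Genes that act with the members were higher in the muscle cells as well. Of 24 further smooth muscle genes, chosen with earlier results of these data known, 20 were at least 5 times higher in the smooth muscle-like cells than in each of the fibroblast-like, keratinocyte-like and blood endothelial-like classes, and 14 in the mural-like cells. Of these 24, 8 were also among the markers that named the clusters, so their level there was partly fixed by the naming, and of the other 16 genes 13 and 8 passed that fold. The share of all genes that pass this fold in these small clusters is not given here. How unusual these list counts are was therefore not tested. The 4 with the most UMIs were Cald1 (caldesmon, an actin-binding protein), at 3646 CPM in smooth muscle-like and 2141 in mural-like cells, Csrp1 (5034 and 1180), Mustn1 (903 and 1979) and Ppp1r14a, an inhibitor of myosin phosphatase (2211 and 619). Pln (phospholamban, a regulator of the calcium pump) was at 295 CPM in mural-like cells and at 0 in smooth muscle-like cells. Of 13 non-muscle counterparts, 1 was 5 times higher than in each of those classes in either cluster. This gene was Myl6, the essential myosin light chain, at 9120 and 5519 CPM. Actb was at 8900 and 5662 CPM, and Actg1 at 1319 and 1713 against 3690 in keratinocyte-like cells. Of 15 genes of contraction control, 2 passed that fold in each cluster, among them Gucy1a3 and Gucy1b3 in the mural-like cells. Gucy1a3, a subunit of the nitric oxide receptor guanylate cyclase, was at 11.6 CPM in smooth muscle-like and 333 in mural-like cells. Among 15 receptors, the vasopressin receptor gene Avpr1a was at 219 CPM in mural-like cells and 0 in smooth muscle-like cells. EGFP, the reporter transcript, had no UMI in either cluster, and 122 UMIs in 96 of the other kept cells.

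Outside the muscle cells, most members were at low levels, with exceptions in particular classes that the map of levels by class shows.

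**Figure D3:**
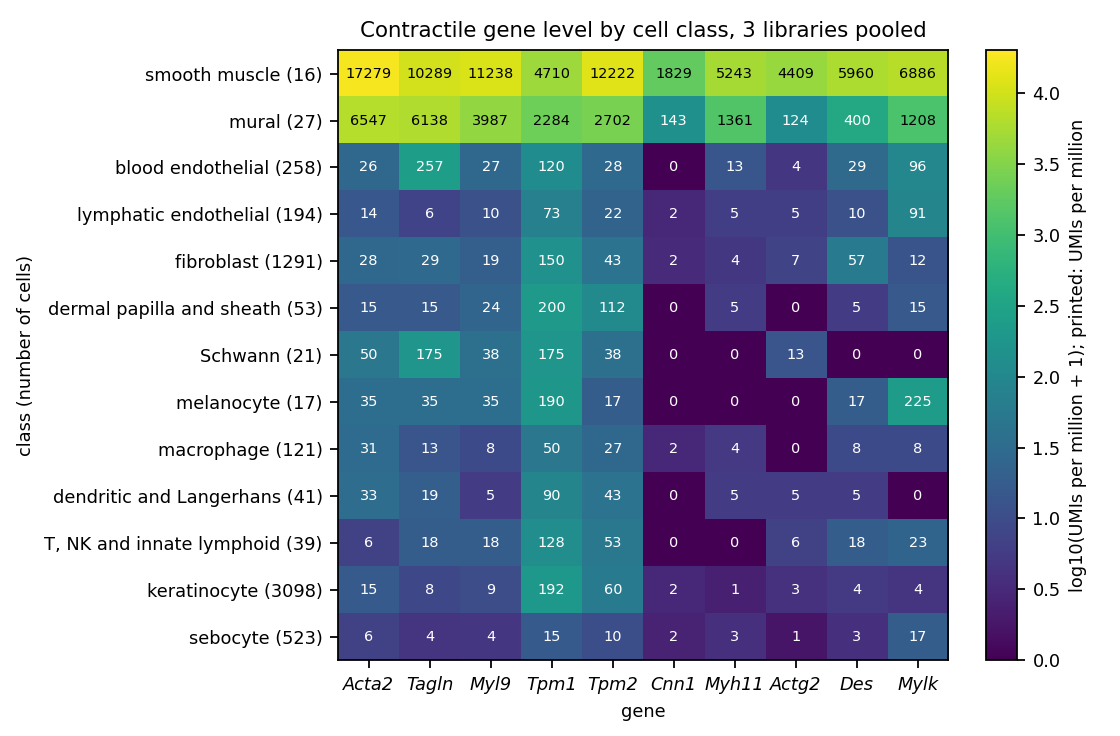
CPM of each contractile gene (columns) summed over the cells of each class (rows, number of cells in brackets) and the 3 libraries, with colour on a log10 scale. Smooth muscle-like and mural-like cells hold the highest level of every gene, while outside them Tagln reaches 257 in blood endothelial-like and 175 in Schwann-like cells, Des 56.7 in fibroblast-like cells and Mylk 225 in 17 melanocyte-like cells.

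Des was carried by fibroblast-like cells. It was at 29.1 CPM in NP, 60.1 in dpc16 and 27.3 in dpp42 fibroblast-like cells, against 1.81, 6.92 and 1.16 in keratinocyte-like cells, which should lack desmin. The ratio of the classes was 16.1 in NP (95% counting interval 5.26 to 49.2), 8.68 in dpc16 (6.56 to 11.7) and 23.5 in dpp42 (6.30 to 107). Des was thus higher in fibroblast-like cells in each of the 3 libraries. Blood endothelial-like cells had 24.8, 30.0 and 29.1 CPM of Des. It was detected in 14.6% of fibroblast-like and 2.16% of keratinocyte-like cells (median 3825 and 3570.5 UMIs), and in 4.88 and 0.549% after thinning each cell to 1000 UMIs. The 5 highest cells held 11.8% of the fibroblast-like Des UMIs, and 20 of the 188 cells with Des also had Acta2. Among the 4 fibroblast-like clusters, Des in dpc16 was at 116 CPM in cluster 24, led by Mmp3 and Igfbp2, and at 93.5 in cluster 2, led by kallikreins and Col1a1. It was at 27.6 in cluster 18, led by Mfap4 and Eln, and 11.3 in cluster 26. Tagln went the other way, at 79.5 CPM in cluster 18 and between 13.0 and 19.3 in the other 3, and so did Tpm2, at 82.0 against 28.2 to 42.0. Acta2 was at 57.7 in cluster 18 and between 18.6 and 24.8 in the others.

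Tagln was carried by blood endothelial-like cells. It was at 174 CPM in NP, 313 in dpc16 and 174 in dpp42, where Acta2 was at 8.27, 37.9 and 9.69. Keratinocyte-like cells had 2.26, 12.2 and 2.90 CPM of Tagln, and the ratio was 76.8 (34.6 to 183), 25.6 (20.1 to 32.7) and 60.1 (30.3 to 132). Lymphatic endothelial-like cells had 8.14 CPM in dpc16 and none in NP and dpp42. Tagln was detected in 95 of 258 blood endothelial-like cells, 14 of which had Acta2 and 22 Rgs5. The highest cell had 34 UMIs, and the 5 highest cells held 29.3% of the class's Tagln UMIs. The share of cells with Tagln was 36.8%, and 16.3% after thinning to 1000 UMIs, against 3.71 and 1.16% of keratinocyte-like cells. The 36 gated cells with mural genes had 200 Tagln CPM and the other 222 had 268, so the level was also found without them.

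Mylk was carried by both endothelial classes. It was at 99.2, 86.9 and 113 CPM in NP, dpc16 and dpp42 blood endothelial-like cells, and at 120, 90.9 and 79.2 in lymphatic endothelial-like cells. Keratinocyte-like cells had 2.03, 5.19 and 1.45 CPM, and the pooled ratio was 26.9 (19.3 to 37.7) for blood and 25.5 (18.1 to 36.1) for lymphatic endothelial-like cells. The intervals of the 3 libraries overlapped in each endothelial class. Of sebocyte-like cells, cluster 23, led by Elovl4 and Scd3, had 90.9 CPM (63.0 to 127), cluster 15 had 14.3 and cluster 9 had 0.855. In 17 melanocyte-like cells Mylk had 13 UMIs in 6 cells.

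Tpm1 and Tpm2 were spread over most classes. Tpm1 was at 148, 221 and 173 CPM in NP, dpc16 and dpp42 keratinocyte-like cells and at 193, 146 and 167 in fibroblast-like cells, but at 19.4, 14.2 and 15.1 in sebocyte-like cells. The ratio of keratinocyte-like to sebocyte-like cells was 7.61 (4.42 to 14.4), 15.6 (11.3 to 22.2) and 11.5 (6.65 to 21.6). The keratinocyte-like clusters are given by library, since the libraries fill them unequally. Tpm1 in dpc16 was highest in cluster 20, led by Nppc, Sgk1 and Lgr5 (549 CPM), and next in cluster 22, led by Serpinb2, Epgn and Krt16 (433), and in NP these clusters were at 362 and 361. The order differed in dpp42, with 911 CPM in the 10 cells of cluster 22, 455 in cluster 6 and 328 in cluster 20. Tpm2 in dpc16 was at 65.8 and 63.6 CPM in those clusters and highest in cluster 6, led by Cst6, Defb6 and Krt79 (193), while in NP cluster 0 (105) was above cluster 6 (81.0). Tpm2 was lowest in cluster 11 in each library, at 2.07 CPM in NP, 11.9 in dpc16 and 5.51 in dpp42.

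Between stages, low levels of several members were higher in dpc16 than in NP in fibroblast-like and keratinocyte-like cells alike. Outside the muscle clusters Acta2 was at 3.91 CPM in NP (2.48 to 5.87), 24.8 in dpc16 (22.7 to 27.1) and 4.08 in dpp42 (2.55 to 6.17). Actg2 had no UMI in the 1283 NP cells outside these clusters, was at 5.31 CPM in dpc16 (4.34 to 6.44) and had 1 UMI in dpp42. In fibroblast-like cells Acta2 was at 3.64, 30.5 and 6.82 CPM in NP, dpc16 and dpp42, from 1, 146 and 2 UMIs. In keratinocyte-like cells, which should lack it, it was at 4.07, 25.7 and 3.48 CPM. The ratio of Acta2 in fibroblast-like to keratinocyte-like cells was 0.894 in NP (0.0215 to 5.66), 1.18 in dpc16 (0.955 to 1.47) and 1.96 in dpp42 (0.213 to 8.80). The share of cells with Acta2 in dpc16 was 10.7% of fibroblast-like and 11.4% of keratinocyte-like cells, and 3.70 and 3.22% after thinning. In each library the counting interval of that ratio included 1, so Acta2 in fibroblast-like cells was not shown to be above the keratinocyte-like level. That level was not uniform in dpc16, from 0 CPM in cluster 12 (0 to 11.2) to 60.8 in cluster 0 (38.5 to 91.2). Acta2 in dpc16 sebocyte-like cells was at 8.63 CPM in cluster 9 (3.47 to 17.8), 7.89 in cluster 15 (4.20 to 13.5) and 0 in cluster 23 (0 to 24.9). The reading thus depended on the class compared, and a ratio to sebocyte-like cells was not tested.

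Of the members measured in fibroblast-like cells, with at least 10 CPM in 1 library and 20 UMIs over both, 4 of 7 passed the size rule as higher in dpc16 than in NP and none as lower. The rule asks for a ratio of at least 1.5 with a counting interval that excludes 1, and it was passed as higher by 6.11% and as lower by 15.7% of the 8054 genes measured. The median log2 ratio was 1.14 for the 7 and -0.30 for all. The 4 were Acta2, Tagln, Tpm2 and Des, and their NP sums held 1, 2, 4 and 8 UMIs. Tagln was at 7.27 and 31.7 CPM in NP and dpc16, a ratio of 4.36 (1.19 to 36.4), Tpm2 at 14.5 and 44.3 (3.04, 1.17 to 11.3) and Des at 29.1 and 60.1 (2.07, 1.04 to 4.83). Of 7 measured between dpp42 and dpc16, Acta2, Tagln and Des were lower in dpp42 and none was higher, against 4.73% lower and 20.6% higher over all genes. Between dpp42 and NP only Tpm1 was measured, at 167 and 193 CPM, and it was not called, where 8.36% of genes were higher and 7.20% lower. Cluster 2 held the most fibroblast-like cells in NP (48 of 98) and dpc16 (347 of 1081), and cluster 24 in dpp42 (60 of 112). Cluster 26 held 250 of the 1081 dpc16 fibroblast-like cells, 4 NP cells and no dpp42 cell. With each cell thinned to 1000 UMIs, or with classes set from marker UMIs without clusters, no member passed in either comparison with dpc16.

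In keratinocyte-like cells 4 of 5 measured members, Acta2, Tagln, Myl9 and Tpm2, were higher in dpc16 than in NP, against 9.51% of all genes, and none was lower, against 21.6%. Acta2 was 6.33 times higher (3.91 to 10.9), Tagln 5.41 times (2.83 to 11.6), Myl9 3.35 times (2.03 to 5.84) and Tpm2 3.18 times (2.61 to 3.91). Between dpp42 and dpc16 the same 4 were lower in dpp42, against 9.02% of genes lower and 22.8% higher. Between dpp42 and NP 1 of 2 was higher, Tpm2, at 42.3 against 26.2 CPM, beside 4.55% of genes higher and 2.62% lower. The stages filled different clusters: clusters 10, 5 and 11 held the most NP cells (233, 207 and 127 of 936), and clusters 8, 1, 6 and 22 the most dpc16 cells (248, 223, 204 and 178 of 1524). With the shared clusters weighted equally the same comparison of dpc16 with NP still called 4 members, with log2 ratios of 2.43 for Acta2, 1.38 for Tagln, 1.38 for Myl9 and 0.91 for Tpm2. Tpm2 was higher in dpc16 than in NP in each of the 12 clusters, but by as little as 57.1 to 59.8 CPM in cluster 5. With classes set from marker UMIs, 2 members were higher in dpc16 than in NP and none in dpp42. These comparisons share their libraries. Tpm2 is the member with the most keratinocyte-like UMIs among the 4, and its level of 83.4 CPM in dpc16 was above the 12.3 in sebocyte-like cells of that library.

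The dpc16 library differed from the others in several measures. Left-out barcodes held 9.08% of its UMIs, against 2.09% in NP and 6.26% in dpp42. Acta2 outside the muscle clusters was at 24.8 CPM in dpc16, 3.91 in NP and 4.08 in dpp42. The left-out barcodes held 2515 Acta2 UMIs in dpc16, against 165 in NP and 223 in dpp42, from libraries of unequal size. All barcodes of these libraries held 21679047, 6031814 and 5794940 UMIs of all genes. The left-out share of the library's Acta2 UMIs was 54.3% in dpc16, 43.0% in NP and 37.4% in dpp42. As CPM of the left-out barcodes alone, Acta2 was at 1278 in dpc16, 1308.5 in NP and 615 in dpp42. That measure does not count how many UMIs were left out. The 431 left-out dpc16 barcodes without 3 of the 6 genes had Acta2 at 20.6 CPM, near the 24.8 of the kept cells outside the muscle clusters. For each 100 Acta2 UMIs, dpc16 keratinocyte-like cells had 22.9 Actg2 (16.5 to 31.1), 47.5 Tagln, 26.9 Des and 52.9 Myl9 UMIs, and the left-out dpc16 barcodes had 19.4, 54.4, 36.0 and 51.0. Fibroblast-like cells had 24.0 Actg2 and 62.3 Myl9 UMIs, but 104 Tagln (82.4 to 132) and 197 Des (161 to 242). Blood endothelial-like cells had 825 Tagln (539 to 1318). Some genes of other cell types were higher too, and others were not. All 4 haemoglobin genes measured of 5 erythroid markers were higher in dpc16 than in NP, with a median log2 ratio of 5.12 in fibroblast-like and 6.10 in keratinocyte-like cells, and Col1a1 in keratinocyte-like cells was at 16.7 CPM in NP and 175 in dpc16. Of 15 keratinocyte markers in fibroblast-like cells 3 were higher and 5 lower, and of 4 mural markers measured in keratinocyte-like cells 1 was higher and 2 lower. The part that RNA free in the suspension had in these levels was not tested.

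**Figure D4:**
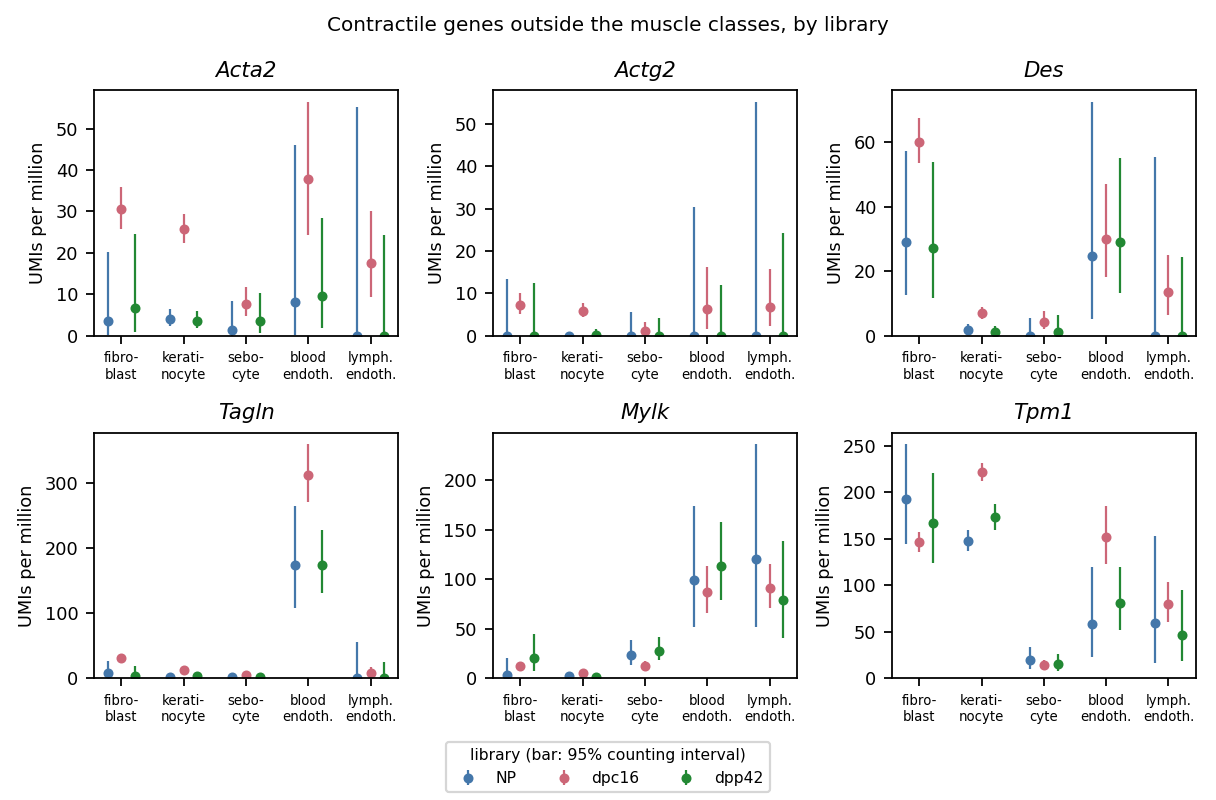
CPM of 6 contractile genes in 5 classes outside the muscle clusters (horizontal axis), with a point for each library and a bar for the 95% counting interval. Acta2 is higher in dpc16 than in NP in fibroblast-like and keratinocyte-like cells. Tagln is highest in blood endothelial-like cells and Mylk in the endothelial classes in all 3 libraries. Actg2 is below the CPM limit for a call between dpc16 and NP in fibroblast-like and keratinocyte-like cells. It is at 7.31 and 5.89 CPM in these dpc16 cells, from 35 and 51 UMIs, and has 0 UMIs in NP.

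Gene lists around the members are given for dpc16 against NP fibroblast-like cells, where 6.11% of all genes were higher and 15.7% lower. A count of 2 of 11 or 1 of 10 lower genes is near that share, and 5 of 13 or 5 of 12 is above it. Of 13 non-muscle counterparts measured, 5 were lower than in NP and the other 8 were not called (median log2 ratio -0.47). Actb was at 1936 against 3811 CPM. Of 12 contraction control genes measured 5 were lower and none higher, and of 11 further smooth muscle genes 2 were lower and 1, Csrp1, higher. In the SRF list 3 of 11 were lower and 1 higher, and of 10 TGF-beta genes 1 was higher (Tgfbr3) and 1 lower (Tgfbr2, at 384 against 807). Of 6 receptors measured 2 were higher and 2 lower, among them the prostaglandin F receptor gene Ptgfr, higher at 66.8 against 32.7, and the oxytocin receptor gene Oxtr, lower at 24.6 against 69.1. Of 10 matrix genes of myofibroblasts 2 were higher, Col1a1 and Col3a1, and 1 lower, Fn1. Heat shock genes stood apart, with 7 of 8 higher and none lower in both fibroblast-like and keratinocyte-like cells. Hspa1a was at 4071 against 1389 CPM in fibroblast-like cells. The part of cell stress or handling in the members' levels was not tested.

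Cells with several of the genes outside the muscle clusters were few. Of the 66 kept cells with at least 3 of the 6 genes, 26 were mural-like, 16 smooth muscle-like and 24 of other classes, and 23 of these 24 were from dpc16. Of these, 9 were blood endothelial-like, 7 fibroblast-like and 5 keratinocyte-like. The 7 fibroblast-like cells had 0 to 2 Acta2 UMIs each and 73 to 222 Col1a1 UMIs. One keratinocyte-like cell had 12 Acta2 and 6 Rgs5 UMIs with 3 of Krt14. After thinning to 1000 UMIs 35 cells had at least 3 of the 6, and these were 19 mural-like and 16 smooth muscle-like cells. None of the 24 cells of other classes remained. With at least 10 Acta2 UMIs there were 37 cells, of which 34 were in the muscle clusters and 3 outside them. The 7 fibroblast-like cells with at least 3 of the 6 genes, among 1291, were thus not a group with high Acta2 at this depth. The rule of 3 genes does not select on the Acta2 level.

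Likeness of pattern was read over units that hold mural-like but no smooth muscle-like cells. Over 19 units of a class in a library with at least 20 cells, the 5 genes with the highest Pearson r of log2(CPM + 10) to Acta2 were Slc11a1, Lmod1, Gm13861, Rcan2 and Rasl12 (0.936 to 0.945). For Tagln they were Higd1b, Tcf15, Ptp4a3, Col6a5 and Rasl11a (0.935 to 0.960), and for Tpm1 Flna, Sept8, Filip1l, Ccdc3 and Nab1 (0.851 to 0.949), among 6778 genes. All 15 were highest in the dpc16 mural-like cells, the 1 muscle unit with enough cells, so these values rest on that unit. The units also share libraries.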

How the data were processed

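Single-cell RNA libraries (10x Chromium 3′ version 2) were made from dermis that had been separated with trypsin after removal of fat, per the labels' protocols. The deposited counts are UMIs per gene and barcode, made by the authors with Cell Ranger 2.2.0 on mm10 (GRCm38), per the submitters' processing notes. The annotation used for counting is not given in the sources used here. Barcodes with at least 200 genes and at most 10% mitochondrial UMIs were kept, 6022 in all, where the study states 6020 (1289 NP, 3650 dpc16 and 1081 dpp42, against 3652 kept for dpc16). No doublet caller was run and no cell was removed as a doublet.

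Cells were scaled to 10000 UMIs and clustered jointly with scanpy 1.11.5 (2000 variable genes without the members, 30 components, 15 neighbours, Leiden resolution 1), with no correction between libraries. Clusters were named from marker lists that hold no member, and 323 cells in unclear clusters were kept out of classes. UMIs were summed per class and library and given per 1000000 UMIs (CPM). Intervals are exact Poisson for levels, exact conditional binomial for ratios and Clopper-Pearson for shares, all at 95% (scipy 1.17.1), and the interval code was tested on simulated data. With 1 library per group no p-value was computed. A gene was measured in a comparison with at least 10 CPM in 1 library and 20 UMIs over both. Lists are described by counts and by the median log2 ratio of the CPM values made from the deposited counts. From each pathway list, up to 4 genes with the most UMIs were to be named. Further list, gate and left-out barcode genes were named after their values were seen. The members and lists were chosen with earlier results of these data known. GENCODE and RefSeq tables gave coordinates and promoters. Alternatives were stricter and looser cell limits, thinning to 1000 UMIs, other class definitions, other clusterings and no filter on low counts.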

Additional observations from a re-analysis of the deposited data

Results flagged for a closer look

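Barcodes that the cell filter left out, which no comparison between stages used, carried contractile genes in each library. At least 3 of Acta2, Tagln, Cnn1, Myh11, Actg2 and Des were detected in 9.76% of left-out NP barcodes (4 of 41, 95% exact binomial interval 2.72 to 23.1), 8.30% of dpc16 (39 of 470, 5.97 to 11.2) and 5.22% of dpp42 (6 of 115, 1.94 to 11.0). A count of 0 would have allowed up to 7.32, 0.638 and 2.61%. Among kept cells the share was 0.388, 1.42 and 0.833%. Their source was not tested.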

How the results depend on the processing

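Of the values that answer a comparison, 100 recomputed under an alternative stayed within the limits set for them, 22 moved and none reversed. The 4 members higher in dpc16 than NP fibroblast-like cells became 0 with cells thinned to 1000 UMIs and 0 with classes from marker UMIs. The 3 lower in dpp42 than dpc16 became 0 under both, and 0 with at most 5% mitochondrial UMIs. In keratinocyte-like cells, the 4 higher in dpc16 than NP became 9 with no filter on low counts and 2 with marker classes, the 1 higher in dpp42 than NP became 0 with shared clusters weighted equally and 0 with marker classes, and the 4 lower in dpp42 than dpc16 became 8 with no filter. The 10 members in gated mural cells, 8072 CPM, became 5277 with at least 1 Rgs5 UMI and 1 other marker, 24893 in the mural-like cluster, 17702 with at least 1 UMI each of Rgs5, Notch3 and Acta2, and 4451 with at most 5% mitochondrial UMIs. The 66 cells with at least 3 of 6 genes became 209 with at least 2, 38 with at least 4, 35 when thinned and 26 with at most 5% mitochondrial UMIs. The 10 members stood at 57705 against 80065 CPM in smooth muscle-like cells with at most 5% mitochondrial UMIs, and at 26048 against 24893 in mural-like cells with the members kept in the clustering. The value of 57705 rests on only an NP cell with 4.95% and a dpp42 cell with 4.90% mitochondrial UMIs. The lowest dpc16 smooth muscle-like cell was at 5.53%. With 2 alternatives chosen after seeing the data, the gated mural value was 20825 outside the blood endothelial-like clusters, and 115 cells had at least 3 of 6 genes with no mitochondrial limit. Beyond fewer cells or UMIs, the cause was not tested. Of values for single genes, 139 stayed within their limits, 30 no longer passed the size rule and 20 moved. No paired analysis was possible because each group has 1 library. NP and dpp42 levels in the muscle clusters rest on 3 to 5 cells, and depth limits the low levels in fibroblast-like cells, where NP sums hold 1 to 8 UMIs for the members called.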
